A study of Mus musculus with 5 samples.

Results

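Among the genes measured in neonatal hearts, 9 Hippo pathway genes were followed: Yap1, Wwtr1, Tead1, Lats1, Lats2, Sav1, Amotl1, Amotl2 and Vgll4. They were chosen by name from knowledge of the pathway, were matched by symbol to their Ensembl identifiers, and all 9 were among the 14880 genes tested of the 49671 counted. The comparison is between CharmeWT and CharmeKO hearts of C57BL6/J mice at postnatal day 2. CharmeKO animals carry a PolyA signal inserted in the locus of Charme, a long noncoding RNA gene. Hearts were pooled by genotype before RNA extraction, with 9 hearts in each of 3 CharmeWT pools and 3 hearts in each of 2 CharmeKO pools. Genotype and the number of hearts per pool therefore cannot be told apart.

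The Hippo pathway is a kinase cascade that sets how far the transcriptional coactivators YAP (encoded by Yap1) and TAZ (encoded by Wwtr1) can enter the nucleus. The kinases MST1 and MST2, held by the adaptor encoded by Sav1, activate the kinases encoded by Lats1 and Lats2, which phosphorylate YAP and TAZ and keep them in the cytoplasm. In the nucleus both coactivators act through the DNA-binding proteins of the TEAD family, and the product of Vgll4 competes with them for TEAD. In the heart the pathway limits the division of cardiomyocytes after birth. Most of this control acts on protein phosphorylation and location, which counts of mRNA do not measure.

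TEAD proteins bind DNA at the bases GGAATG, which read CATTCC on the opposite strand. The RefSeq promoter windows of GRCm38.p6, 250 bases before to 50 after each start, were searched for these 6 bases in both orientations, to show which genes of the pathway carry them beside their own start. Windows were found for 8 of the 9 genes, with Tead1 the gene left unmatched, and 6 of these 8 held the motif (Yap1, Wwtr1, Lats2, Sav1, Amotl2 and Vgll4). Counted by window, 7 of their 10 windows held it, against 14.7% of the 32851 windows of all genes, and the 2 Wwtr1 windows shared 1 site. Among other genes of the pathway, from a list described further on, 7 of 27 windows (25.9%) held it. No match was found for Lats1, Amotl1 and the second Lats2 window. The 250 bases upstream of the start are shown for the coactivator genes Yap1 (chr9:8004597-8004846, minus strand) and Wwtr1 (chr3:57575911-57576160, minus strand), where the motif begins 141 and 136 bases before the start. The same stretch is shown for Ankrd1 (chr19:36119845-36120094, minus strand), a target gene of YAP that is described further on, with 2 motifs beginning 210 and 123 bases before the start. These starts are those of RefSeq. In the GENCODE M21 gene annotation Ankrd1 starts farther upstream, and the stretch shown lies inside the gene. All stretches are written 5′ to 3′ on the gene's strand with the motif in capitals.
Yap1: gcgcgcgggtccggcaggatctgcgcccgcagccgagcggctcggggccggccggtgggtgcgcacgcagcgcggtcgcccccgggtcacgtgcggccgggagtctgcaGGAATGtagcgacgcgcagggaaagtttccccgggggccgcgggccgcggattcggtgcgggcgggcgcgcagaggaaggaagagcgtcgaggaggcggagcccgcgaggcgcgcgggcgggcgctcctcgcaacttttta
Wwtr1: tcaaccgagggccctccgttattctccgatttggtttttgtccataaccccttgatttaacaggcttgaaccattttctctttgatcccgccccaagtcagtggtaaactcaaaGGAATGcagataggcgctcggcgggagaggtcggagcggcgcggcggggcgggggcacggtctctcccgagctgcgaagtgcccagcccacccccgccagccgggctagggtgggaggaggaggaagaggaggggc
Ankrd1: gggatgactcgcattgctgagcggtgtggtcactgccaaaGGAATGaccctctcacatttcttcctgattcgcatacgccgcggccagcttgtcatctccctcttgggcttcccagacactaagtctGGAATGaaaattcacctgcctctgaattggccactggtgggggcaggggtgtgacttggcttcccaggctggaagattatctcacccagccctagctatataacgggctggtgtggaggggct

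The 30 bases around the motif are shown for the other genes of the set that hold it. These lie at chr14:57746102-57746131 (Lats2, minus strand), chr12:69987091-69987120 (Sav1, minus strand), chr9:102717727-102717756 (Amotl2, plus strand) and chr6:114969268-114969297 (Vgll4, minus strand). Counted from the RefSeq start, the motif begins 106 bases before it in Sav1, 82 in Vgll4 and 65 in Amotl2, and at base 5 of the transcript in Lats2. The GENCODE M21 gene annotation, used for the gene coordinates given below, places other starts. By it the sites of Lats2, Amotl2 and Vgll4 lie inside the gene, and that of Sav1 lies before it. A match is a description of the letters and does not show that TEAD was bound.
Lats2: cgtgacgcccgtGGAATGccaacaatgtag
Sav1: cggctttcccagCATTCCcagcggcgcggg
Amotl2: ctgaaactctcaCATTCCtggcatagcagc
Vgll4: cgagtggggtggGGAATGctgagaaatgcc

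The counts on genes summed to 16721055 to 21646378 per pool. Charme itself had 183 to 810 counts in the CharmeWT pools and 57 and 79 in the CharmeKO pools. In the sums of several marker lists, whose part in the values below was not tested, both CharmeKO pools differed from every CharmeWT pool. Those of salivary gland and cycling cells, which also set the CharmeKO pools apart from each other, are given here. Those of adipose, erythroid and epicardial cells are given further on. The 5 markers of salivary gland summed to at most 0.0506 CPM (counts scaled to library size) in CharmeWT pools, where 4 of the 5 were at 0 in every pool, and to 325 and 24708 CPM in CharmeKO pools 1 and 2. The 6 markers of cycling cells summed to between 250 and 363 CPM in CharmeWT pools and to 1348 and 747 CPM in CharmeKO pools 1 and 2.

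In CharmeWT hearts the gene of the set with the highest FPKM was Wwtr1, at 24.7 ± 0.942 FPKM (SD, n = 3). Levels are given as FPKM, the TMM-normalized counts scaled to library size and to exon length. The length is that of all annotated exons of a gene merged, and the order of the genes depends on it. Amotl2 followed at 14.4 ± 0.224 FPKM, then Yap1 (11.9 ± 0.892), Amotl1 (11.4 ± 2.26), Tead1 (10.3 ± 1.56), Sav1 (9.84 ± 0.179), Lats2 (8.46 ± 1.53) and Vgll4 (6.76 ± 1.66). Lats1 was the lowest, at 2.53 ± 0.331 FPKM. In this order Wwtr1 lay above Amotl2, Amotl2 above Yap1, Sav1 above Lats2 and Vgll4 above Lats1 in every CharmeWT pool, while Yap1, Amotl1, Tead1 and Sav1 overlapped in turn, as did Lats2 and Vgll4. The FPKM of Wwtr1 were 1.89 to 2.35 times those of Yap1 within each CharmeWT pool. This ratio rests on the exon lengths, 4779 bases for Wwtr1 and 9257 for Yap1. In CharmeWT pools 1 to 3 the raw counts were 2330, 2155 and 2355 for Wwtr1 and 2389, 1779 and 2248 for Yap1. Raw counts of the 9 genes lay between 301 and 3004 per pool. Tead1 and Amotl1 each overlap another gene on the same strand that had 0 counts in every pool, and Lats2 overlaps one of the GENCODE M21 annotation that is not among the genes counted.

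Comparing CharmeKO with CharmeWT hearts, none of the 9 genes passed the test (edgeR's quasi-likelihood test, Benjamini-Hochberg adjusted p under 0.1 over the 14880 genes and a mean of at least 1 FPKM in a genotype), with adjusted p from 0.207 to 0.919. Over all genes 2.05% were called. The likelihood ratio test of edgeR and DESeq2 also called 0 of the 9, against 6.27% and 7.54% of all genes. At an unadjusted p under 0.05 the quasi-likelihood test counted 2 of the 9, Yap1 and Lats2, both lower in CharmeKO, against 8.01% of all genes in that direction. Log2 fold changes, CharmeKO over CharmeWT, were below 0 for 8 of the 9, against 7165 of the 14880 genes tested. Their median was -0.25, against 0.02 over all genes tested, and the standard errors of the 9 lay between 0.163 and 0.257. Both CharmeKO pools lay below every CharmeWT pool for 3 of the 9 genes (Yap1, Lats2 and Sav1) and above for 1 (Lats1), where 18.2% and 17.8% of all genes tested did so. In these whole-heart pools, fewer cells of a type and less RNA per cell cannot be told apart. The study calls the pools of its RT-qPCR independent, and for the sequencing states that hearts of littermates were pooled by genotype. It does not state whether pools of both genotypes shared litters. The p-values measure the spread between pools, not between hearts.

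**Figure D1:**
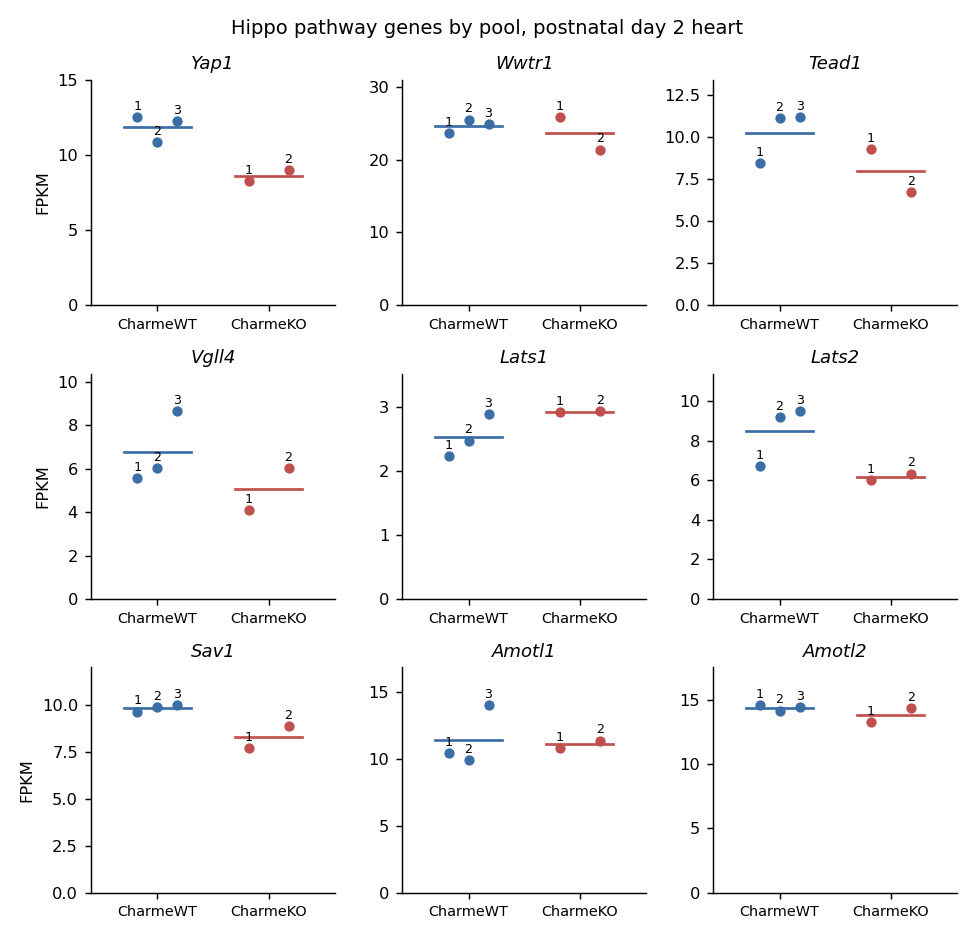
FPKM of the 9 Hippo pathway genes in each pool, with CharmeWT in blue and CharmeKO in red. Each point is a pool with its number beside it, bars are group means and every axis starts at 0. Yap1, Lats2 and Sav1 are lower in both CharmeKO pools than in every CharmeWT pool, while Wwtr1, Tead1, Vgll4, Amotl1 and Amotl2 overlap.

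Yap1 (ENSMUSG00000053110) encodes YAP and lies on chromosome 9 of GRCm38, from 7931999 to 8004596 on the minus strand. It was measured at 12.5, 10.9 and 12.3 FPKM in CharmeWT pools 1 to 3 and at 8.26 and 9.01 FPKM in CharmeKO pools 1 and 2. The groups did not overlap, and each differed little within itself. The mean was 11.9 ± 0.892 FPKM in CharmeWT (SD, n = 3) and 8.63 ± 0.533 FPKM in CharmeKO hearts (SD, n = 2). This is a log2 fold change of -0.46 (SE, the standard error, of 0.171, adjusted p = 0.207 by edgeR's quasi-likelihood test), which is 27.4% lower. The unadjusted 95% interval of this difference ran from -0.84 to -0.08. Across all alternatives the value stayed between -0.53 and -0.40, and it passed the threshold when CharmeKO pool 2 was left out (adjusted p = 0.0486), a setting in which 31.7% of all genes were called.

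Wwtr1, the gene for TAZ (ENSMUSG00000027803, chromosome 3, 57455649 to 57575910), had 23.7, 25.5 and 24.9 FPKM in CharmeWT pools and 25.8 and 21.4 FPKM in CharmeKO pools 1 and 2. The CharmeKO pools fell on either side of the CharmeWT range. The log2 fold change was -0.07 (SE 0.171, adjusted p = 0.860 by edgeR's quasi-likelihood test), with an unadjusted 95% interval from -0.45 to 0.32, and it was 0.06 without CharmeKO pool 2. The ratio of Wwtr1 to Yap1 FPKM was 1.89, 2.35 and 2.03 in CharmeWT pools and 3.13 and 2.38 in CharmeKO pools. Both CharmeKO ratios were above the CharmeWT ratios, that of pool 2 by a small margin. The sum of both genes was 36.2 to 37.2 FPKM in CharmeWT and 34.1 and 30.4 FPKM in CharmeKO pools. The ratios were chosen after the values had been seen and are given without a test. Groups of 3 and 2 allow 10 assignments, and an exact permutation test could not have given a two-sided p under 0.1.

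Tead1 encodes a DNA-binding partner of YAP and TAZ that is prominent in heart muscle (ENSMUSG00000055320, chromosome 7, 112679318 to 112906807). It was at 8.48, 11.2 and 11.2 FPKM in CharmeWT pools and 9.28 and 6.72 FPKM in CharmeKO pools, with CharmeKO pool 1 inside the CharmeWT range. The log2 fold change of -0.36 (SE 0.210, adjusted p = 0.374) became -0.15 without CharmeKO pool 2 and -0.61 without CharmeKO pool 1. Of the 4 TEAD genes, Tead2 had the highest FPKM, 19.0 ± 1.43 in CharmeWT hearts. This order rests on the exon lengths, 4788 bases for Tead2 and 13570 for Tead1. In CPM, which leave out length, Tead1 was at 115 to 152 and Tead2 at 83.5 to 96.8 in CharmeWT pools. Of the summed FPKM of the 4 genes, Tead2 took 52.3% to 57.7% in CharmeWT and 53.8% and 60.2% in CharmeKO pools. Tead1 took 25.2% to 33.5% in CharmeWT and 32.8% and 22.4% in CharmeKO pools, while Tead3 was at 4.13 ± 0.593 and Tead4 at 1.25 ± 0.177 FPKM in CharmeWT hearts. Summed over the 4 genes, the level was 33.4 to 37.0 FPKM in CharmeWT pools and 28.3 and 30.02 FPKM in CharmeKO pools, below every CharmeWT pool. Of all genes tested 18.2% lay so, and the sum, like the ratios above, is given without a test. None of Tead2, Tead3 and Tead4 was called, with log2 fold changes of -0.19, -0.30 and -0.10, and all 3 turned to a value above 0 with the correction for gene length and GC content (0.12, 0.03 and 0.12).

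Vgll4, whose product competes with the coactivators for TEAD (ENSMUSG00000030315, chromosome 6, 114860628 to 114969994), had 5.58, 6.03 and 8.66 FPKM in CharmeWT pools and 4.08 and 6.05 FPKM in CharmeKO pools. CharmeKO pool 2 lay within the CharmeWT range and pool 1 below it. Its log2 fold change was -0.41 (SE 0.257, adjusted p = 0.406 by edgeR's quasi-likelihood test). The value rested on the pools used: it was -0.74 (adjusted p = 0.0657) without CharmeKO pool 2, -0.16 without CharmeKO pool 1 and -0.19 without CharmeWT pool 3, and -0.15 when corrected for length and GC content. Vgll3, a related gene, was at 0.355 ± 0.0685 FPKM in CharmeWT hearts, and Vgll2 had at most 3 counts in any pool and was not tested.

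The fold changes of the LATS kinase genes had opposite signs. Lats2 (ENSMUSG00000021959, chromosome 14, 57689662 to 57758388) had 6.70, 9.20 and 9.48 FPKM in CharmeWT pools and 5.996 and 6.33 FPKM in CharmeKO pools. CharmeWT pool 1 lay close to the CharmeKO pools, and the groups did not overlap. The log2 fold change was -0.46 (SE 0.204, adjusted p = 0.268 by edgeR's quasi-likelihood test), or 27.1% lower, and corrected for gene length and GC content it was -0.23. Lats1 (ENSMUSG00000040021, chromosome 10, 7681214 to 7716460) had 2.23, 2.47 and 2.88 FPKM in CharmeWT pools and 2.92 and 2.94 FPKM in CharmeKO pools. Its log2 fold change was 0.21 (SE 0.209, adjusted p = 0.602 by the same test), and corrected for gene length and GC content it was 0.088. Lats1 was the 1 gene of the 9 with a fold change above 0, and its lead over the highest CharmeWT pool was small. Within a pool the ratio of Lats1 to Lats2 FPKM was 0.333, 0.269 and 0.304 in CharmeWT and 0.487 and 0.464 in CharmeKO, so that the CharmeKO ratios lay above all CharmeWT ratios. The sum of both kinases was 8.93 to 12.4 FPKM in CharmeWT pools and 8.92 and 9.27 FPKM in CharmeKO pools.

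Sav1, the adaptor that holds the upstream kinases (ENSMUSG00000021067, chromosome 12, 69965012 to 69987002), had 9.65, 9.88 and 10.001 FPKM in CharmeWT pools and 7.68 and 8.88 FPKM in CharmeKO pools. The CharmeWT pools were close together and both CharmeKO pools lay below them. Its log2 fold change was -0.25 (SE 0.175, adjusted p = 0.459), and corrected for length and GC content it was -0.51 (adjusted p = 0.252). Sav1 had the lowest GC content of the 9 genes, 40% in its longest transcript, and Amotl2 the highest, 56.7%.

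Amotl1 and Amotl2 encode scaffold proteins of the angiomotin family, which hold YAP at cell junctions and in the cytoplasm. Amotl1 (ENSMUSG00000013076, chromosome 9, 14541966 to 14645056) had 10.4, 9.88 and 14.0 FPKM in CharmeWT pools and 10.8 and 11.4 FPKM in CharmeKO pools. Amotl2 (ENSMUSG00000032531, chromosome 9, 102716672 to 102733418) had 14.6, 14.2 and 14.4 FPKM in CharmeWT pools and 13.3 and 14.3 FPKM in CharmeKO pools. For both genes the groups overlapped. The log2 fold changes were -0.04 (SE 0.197) and -0.06 (SE 0.163), with unadjusted 95% intervals from -0.48 to 0.39 and from -0.42 to 0.30. Both were above 0 with the length and GC correction, at 0.19 for Amotl1 and 0.27 for Amotl2. Amot, the X-linked gene of the family, was at 0.974 ± 0.130 FPKM in CharmeWT and 1.03 ± 0.0802 FPKM in CharmeKO hearts.

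The genes closest in pattern to 3 of the 9 were looked up among the 6485 other tested genes with a mean of at least 5 FPKM, as the smallest root mean square difference of log2 CPM over the 5 pools. Closest to Yap1 were Pold4 (0.0381 on the log2 scale) and F11r (0.0386), with log2 fold changes of -0.42 for both. Closest to Wwtr1 were Arl8b (0.0262) and Enah (0.0307), and closest to Tead1 were Wnk1 (0.0454) and Jcad (0.0488). With 5 pools and this many genes, a close match is a description only.

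The rest of the pathway was read from a list of 28 upstream regulators, core kinases, adaptors and related genes, of which 27 were tested. None of these passed the quasi-likelihood test of edgeR. At an unadjusted p under 0.05 there were 6, 4 of them lower (Nf2, Map4k4, Fat4 and Dchs1) and 2 higher (Slmap and Wwc1) in CharmeKO, where 8.01% of all genes tested were lower and 10.6% higher at that level. The median log2 fold change was -0.05, and both CharmeKO pools lay below every CharmeWT pool for 8 and above for 4, against 18.2% and 17.8% of all genes. The likelihood ratio test called 2 (Slmap and Wwc1), against 6.27% of all genes, and DESeq2 called 3 (Dchs1 in addition), against 7.54%. Without CharmeKO pool 2 the log2 fold changes of Slmap and Wwc1 were 1.41 and 0.31, and without CharmeKO pool 1 they were 0.25 and 2.77. Besides Nf2, the genes of this list described in the next paragraphs were picked out after their values had been seen, except Stk3, Stk4, Mob1a and Mob1b.

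Upstream of the kinases, the atypical cadherin genes Dchs1 and Fat4, a ligand and receptor pair, had log2 fold changes of -0.86 (SE 0.299, adjusted p = 0.191) and -0.65 (SE 0.262, adjusted p = 0.237). Dchs1 was at 2.50, 4.76 and 3.89 FPKM in CharmeWT and 1.58 and 2.49 FPKM in CharmeKO pools, where CharmeKO pool 2 lay just under CharmeWT pool 1. Nf2, which encodes Merlin, a membrane-bound activator of the pathway, was at 17.5, 21.01 and 19.3 FPKM in CharmeWT and 13.9 and 14.3 FPKM in CharmeKO pools. Its log2 fold change of -0.45 (SE 0.171, adjusted p = 0.216) became -0.19 when corrected for length and GC content. Map4k4, a kinase able to act on LATS, was at -0.43 (SE 0.176, adjusted p = 0.245). The same correction brought Map4k4 to -0.17, Dchs1 to -0.45 and Fat4 to -0.40.

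For the core kinase genes Stk4 (MST1) and Stk3 (MST2) the CharmeKO pools lay apart from each other. Stk3 had 4.63, 3.98 and 4.58 FPKM in CharmeWT and 7.42 and 4.29 FPKM in CharmeKO pools 1 and 2, so that CharmeKO pool 1 alone lay outside the CharmeWT range, and its log2 fold change was 0.41 (adjusted p = 0.389), or 0.048 when corrected for length and GC content. Stk4 had 5.31 to 5.84 FPKM in CharmeWT and 6.89 and 4.71 FPKM in CharmeKO pools, with a log2 fold change of 0.04 that was -0.25 without CharmeKO pool 1. The adaptor genes Mob1a and Mob1b were at 0.15 and 0.21, with adjusted p of 0.693 and 0.557. Slmap, a subunit of the phosphatase complex that acts on the MST kinases and also a membrane protein gene of muscle, had 22.1, 20.2 and 23.0 FPKM in CharmeWT and 58.2 and 25.9 FPKM in CharmeKO pools 1 and 2. Its log2 fold change of 0.95 (SE 0.285, adjusted p = 0.154) was 0.25 without CharmeKO pool 1. Wwc1, which encodes the epithelial scaffold protein KIBRA, had 38, 24 and 34 counts in CharmeWT pools, 29 in CharmeKO pool 1 and 251 in CharmeKO pool 2. Its log2 fold change of 2.05 was 0.31 without CharmeKO pool 2, the pool with 24708 CPM of salivary gland markers. Their part in the Wwc1 value was not tested.

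**Figure D2:**
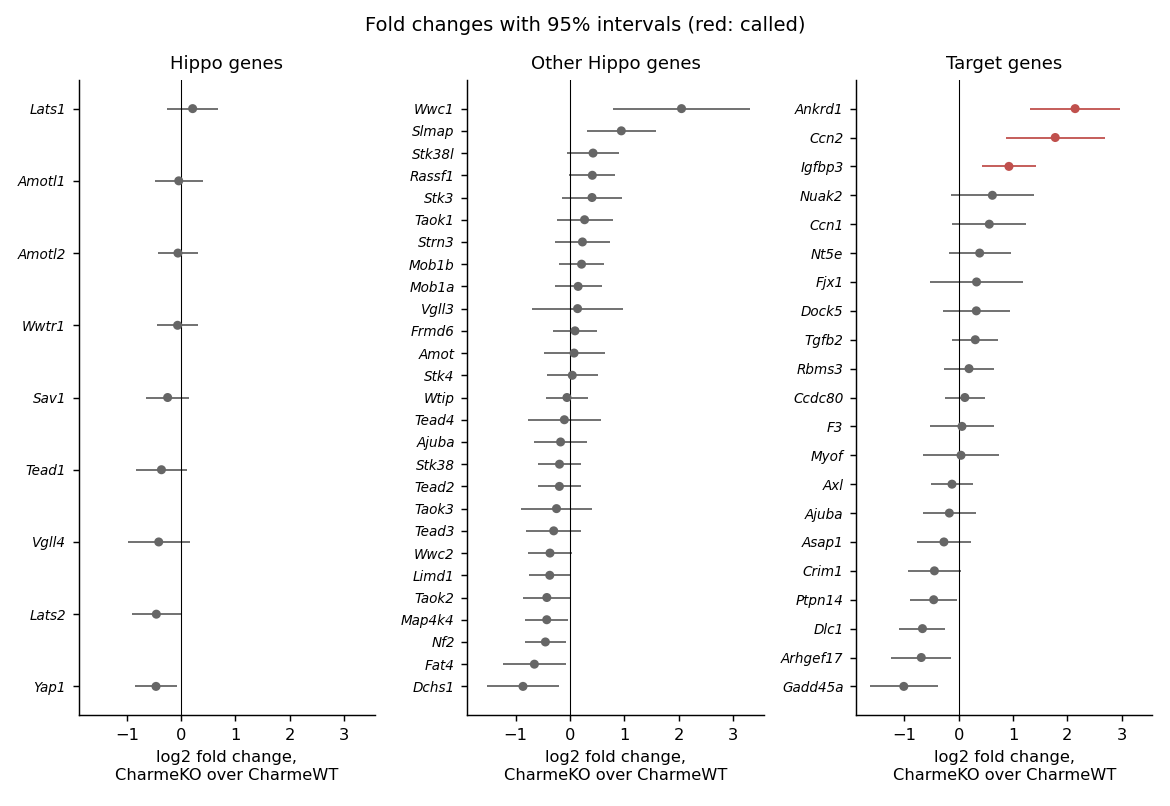
Log2 fold changes, CharmeKO over CharmeWT, with unadjusted 95% intervals, for the 9 Hippo pathway genes, the 27 tested genes of the rest of the pathway and the 21 tested target genes. Red marks the genes that were called. No gene of the first 2 groups is red, and Ankrd1 and Ccn2 lie farthest to the right among the targets.

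Genes that YAP and TAZ are known to activate through TEAD were read from a list of 22, of which 21 were tested, while Foxf2 had at most 1 count in any pool. Of the 21, 3 were called and all 3 were upregulated (Ankrd1, Ccn2 and Igfbp3), where 1.53% of all genes were called in that direction. The median log2 fold change of the list was 0.11, with 13 genes above 0 and 8 below, against 7715 and 7165 of the 14880 genes tested. Both CharmeKO pools lay above every CharmeWT pool for 6 targets and below for 5, against 17.8% and 18.2% of all genes. Ajuba, whose product binds LATS, stands in this list and in that of the rest of the pathway (log2 fold change -0.17). Lats2 and Amotl2 are also targets of YAP and were counted above, with fold changes of -0.46 and -0.06. The likelihood ratio test and DESeq2 called 5 targets each, the same 3 and 2 lower ones, Gadd45a and Dlc1. These tests called 6.27% and 7.54% of all genes. With the length and GC correction 4 targets were called, Gadd45a in addition (adjusted p = 0.0833), where 371 of the 14880 genes tested were called. Without CharmeWT pool 1 or CharmeWT pool 3 no target was called, in settings that called 2 and 0 of all genes, and 9 were called without CharmeKO pool 2, where 31.7% of all genes were.

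Ankrd1 encodes a stretch-responsive nuclear protein of the cardiomyocyte sarcomere. It had 124, 130 and 113 FPKM in CharmeWT pools and 817 and 265 FPKM in CharmeKO pools 1 and 2. The CharmeWT pools were close together, both CharmeKO pools lay above them, and CharmeKO pool 1 was far above pool 2. The log2 fold change was 2.14 (SE 0.374, adjusted p = 0.0423 by edgeR's quasi-likelihood test), a 4.42-fold rise, and it was 1.12 (adjusted p = 0.00312) without CharmeKO pool 1 and 2.73 (adjusted p = 5.14e-05) without CharmeKO pool 2. The call was lost without CharmeWT pool 1 (log2 fold change 2.15, adjusted p = 0.170) or CharmeWT pool 3 (2.09, adjusted p = 0.275), where the fold stayed as large and 2 and 0 of all genes were called.

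Ccn2 (formerly Ctgf), a secreted matricellular protein gene, had 38.9, 28.4 and 22.8 FPKM in CharmeWT pools and 158 and 47.9 FPKM in CharmeKO pools 1 and 2. Again both CharmeKO pools lay above the CharmeWT pools, pool 1 by far more. The log2 fold change was 1.78 (SE 0.406, adjusted p = 0.0836 by edgeR's quasi-likelihood test). It was 0.68 (adjusted p = 0.175) without CharmeKO pool 1, and the call was also lost in the robust form of the test (0.154) and without any of the CharmeWT pools (0.165 to 0.380), where the fold change was 1.61 to 2.01. Ccn1 (formerly Cyr61), a gene of the same family, had 26.5, 17.97 and 12.9 FPKM in CharmeWT and 35.2 and 21.5 FPKM in CharmeKO pools. CharmeKO pool 2 lay inside the CharmeWT range, and the log2 fold change was 0.56 (SE 0.304, adjusted p = 0.343). A motif begins 103 bases before the start of Ccn1 (chr3:145650071-145650100, minus strand), written with the motif in capitals. Of the 14 target genes with a window, 6 held the motif, against 16.6% of all 27025 genes with a window. The windows of Igfbp3 and Gadd45a did not hold it. For Ccn2, no window was found in the promoter table.
Ccn1: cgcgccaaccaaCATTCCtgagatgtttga

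**Figure D3:**
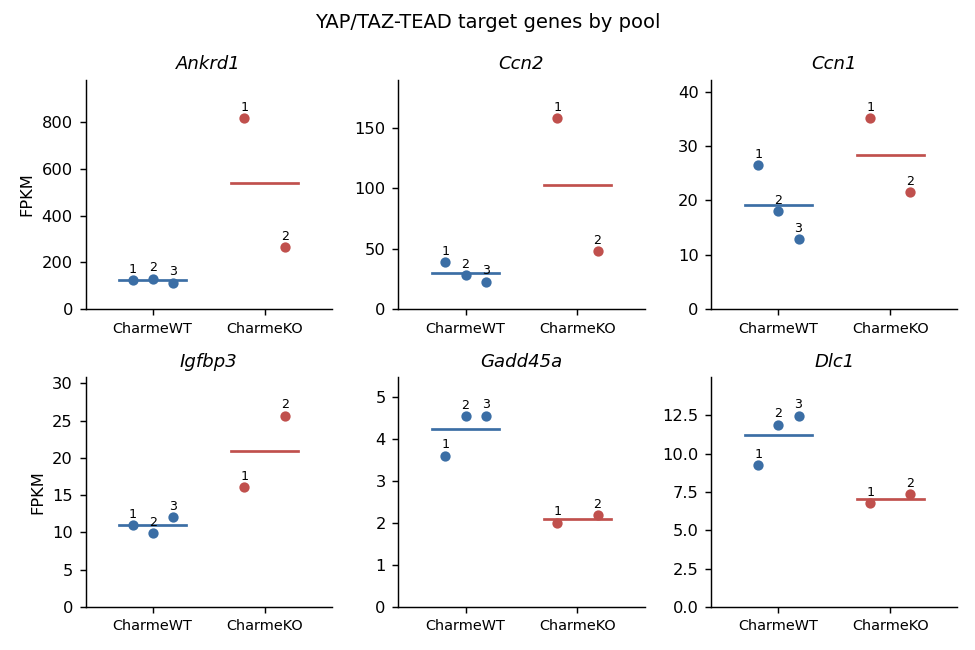
FPKM of 6 target genes of YAP and TAZ in each pool, with CharmeWT in blue and CharmeKO in red. Each point is a pool with its number, bars are group means and axes start at 0. Ankrd1 and Ccn2 are highest in CharmeKO pool 1, Igfbp3 is highest in CharmeKO pool 2, and Gadd45a and Dlc1 are lower in both CharmeKO pools than in every CharmeWT pool.

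Igfbp3, which encodes a secreted binding protein for insulin-like growth factors, had 11.0, 9.95 and 12.02 FPKM in CharmeWT pools and 16.05 and 25.7 FPKM in CharmeKO pools 1 and 2. Here CharmeKO pool 2 was the higher. The log2 fold change was 0.93 (SE 0.222, adjusted p = 0.0958 by edgeR's quasi-likelihood test). It was 0.54 without CharmeKO pool 2, and the call was lost with no filter on low counts (adjusted p = 0.122), in the legacy and robust forms of the test (0.106 and 0.107) and without any of the CharmeWT pools (0.253 to 0.362). Among targets with lower values, Gadd45a, a growth arrest gene, had 3.61, 4.56 and 4.56 FPKM in CharmeWT and 2.01 and 2.19 FPKM in CharmeKO pools, with a log2 fold change of -1.01 (SE 0.282, adjusted p = 0.137). Dlc1 was at -0.67 (SE 0.190, adjusted p = 0.143). Arhgef17 was at -0.69 (SE 0.246, adjusted p = 0.198). Corrected for length and GC content, Dlc1 was at -0.40 and Arhgef17 at -0.27. These 3 were picked out after their values had been seen. With Ptpn14, at -0.46 (adjusted p = 0.248), they were the 4 targets lower at an unadjusted p under 0.05, and the 3 called genes were those higher, against 8.01% and 10.6% of all genes.

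Set against Yap1 in the same pool, Ankrd1 FPKM were 9.86, 11.96 and 9.24 times those of Yap1 in CharmeWT pools and 98.9 and 29.4 times in CharmeKO pools 1 and 2. For Ccn2 the ratios were 3.104, 2.61 and 1.85 in CharmeWT and 19.1 and 5.32 in CharmeKO pools. Ankrd1 and Ccn2 were thus higher in the same pools in which Yap1 FPKM were lowest. The summed level of 6 cardiomyocyte markers was 35422 to 45512 CPM in CharmeWT and 36927 and 37154 CPM in CharmeKO pools, and that of 7 endothelial markers 974 to 1220 CPM in CharmeWT and 884 and 1013 CPM in CharmeKO pools. The 6 fibroblast markers summed to 1836 to 2058 CPM in CharmeWT and 1628 and 2546 CPM in CharmeKO pools, so these 3 lists overlapped between genotypes. The 6 epicardial and mesothelial markers were at 74.8 to 126 CPM in CharmeWT and 155 to 164 CPM in CharmeKO pools, and the 5 erythroid markers at 669 to 1000 and 1241 to 1812 CPM. The 6 markers of smooth muscle and pericytes (979 to 1965 against 1306 to 1555 CPM) and the 6 of macrophages (71.3 to 120 against 97.1 to 156 CPM) overlapped, as did the 6 of skeletal muscle. All markers of these heart lists other than skeletal muscle were detected in every pool. The 5 adipose markers were at most 5.54 CPM in CharmeWT and 48.5 and 987 CPM in CharmeKO pools 1 and 2, while those of thymus and T cells and of lung epithelium stayed under 2 CPM in every pool. The part of the cell makeup in the values of the Hippo pathway genes and their targets was not tested.

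**Figure D4:**
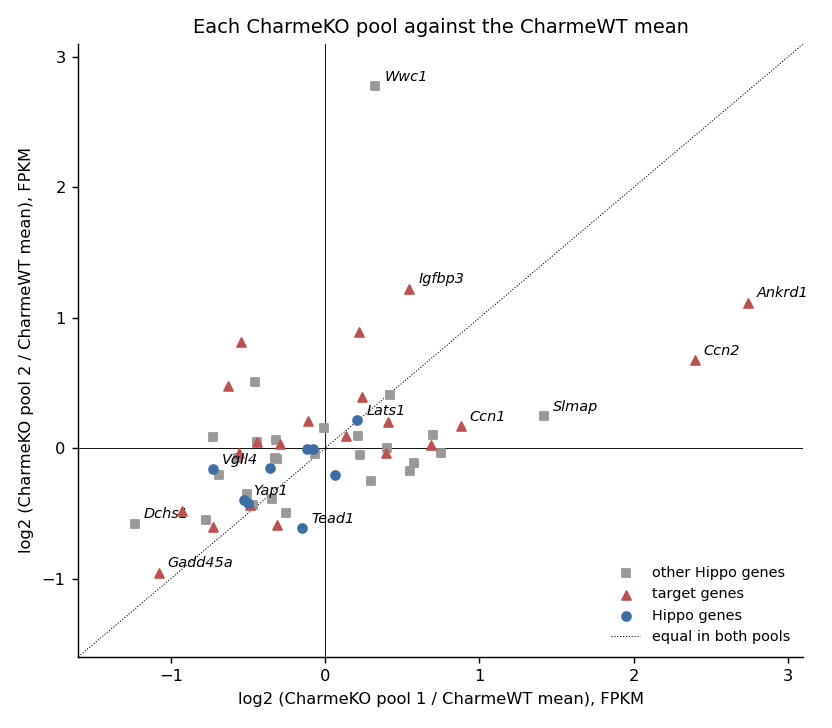
Log2 ratio of each CharmeKO pool to the CharmeWT mean FPKM, with CharmeKO pool 1 on the horizontal and pool 2 on the vertical axis, for the Hippo pathway genes (blue circles), the rest of the pathway (grey squares) and the targets (red triangles). The dotted line marks equal values in both pools. Yap1, at -0.53 and -0.40, lies near the line, Ankrd1 (2.74 and 1.11), Ccn2 (2.40 and 0.68) and Slmap (1.42 and 0.25) lie on the side of pool 1, and Wwc1 (0.32 and 2.78) on the side of pool 2.

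The values of the 9 genes depended on the setting to different degrees. Yap1, Tead1, Lats2 and Sav1 stayed below 0 and Lats1 above 0 in every alternative run. For Wwtr1, Amotl1, Amotl2 and Vgll4 the sign changed in at least 1 alternative. The number of the 9 genes below 0 was 8 with all pools, 7 without CharmeWT pool 3 or CharmeKO pool 2, 6 when corrected for length and GC content and 5 when the replicate number was also a block.

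**Figure D5:**
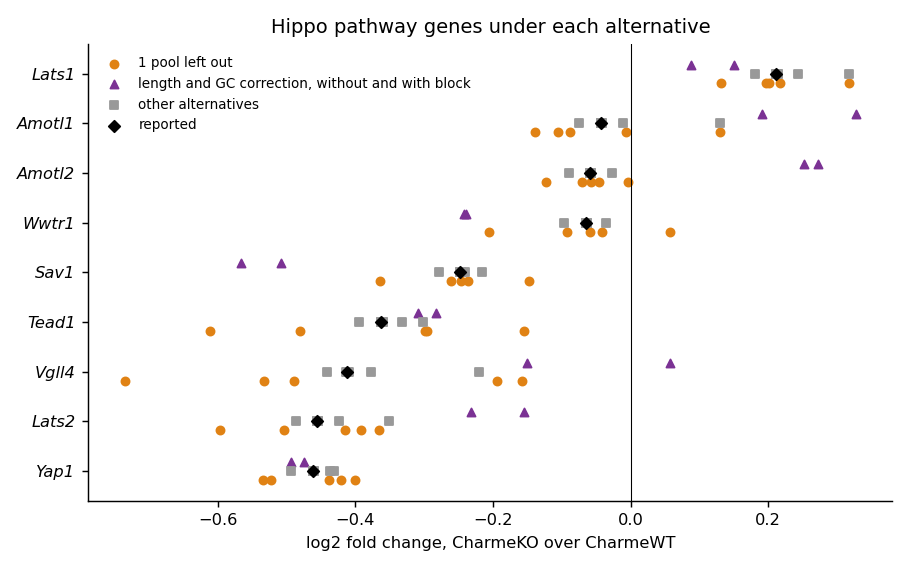
Log2 fold change, CharmeKO over CharmeWT, of each Hippo pathway gene as reported (black) and under each alternative: 1 pool left out (orange), the length and GC correction without and with the replicate block (purple) and the others (grey). Yap1 stays between -0.53 and -0.40, while Vgll4 runs from -0.74 to 0.06 and Amotl1 from -0.14 to 0.33.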

How the data were processed

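RNA of pooled hearts was sequenced as stranded paired-end libraries. The authors trimmed reads with Cutadapt and Trimmomatic, aligned them to GRCm38 (mm10 in the submitters' notes) with STAR, and deposited raw counts of fragments per gene of Ensembl release 87 from the reverse-strand column of STAR. The versions used for these RNA libraries are not given in the sources used here. The authors' FPKM table was not used, and FPKM were computed from the counts with exon lengths of GENCODE M21 (GRCm38), to which 49411 of the 49671 genes matched. A length of 1000 bases was assumed for 23 tested genes without one.

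Analysis used R 4.3.3, edgeR 4.0.16 and DESeq2 1.42.0. A gene entered the fit when 2 or more pools had 10 or more counts. Library sizes were scaled by TMM, the quasi-likelihood test of edgeR was run in its newer form, and p-values were adjusted over all genes by Benjamini-Hochberg. Calls needed an adjusted p under 0.1 and 1 FPKM or more on average in a genotype. The study's likelihood ratio test was an alternative, as were DESeq2, other normalizations and filters, a block on the replicate number, a spline correction for gene length and GC content, and each pool left out in turn. Leaving out a CharmeKO pool leaves 1, which is assumed to vary like the others. Named genes were the 9, Charme, paralogs and partners fixed by name, called genes of the lists, and those stated as picked later. The members and lists were chosen with earlier results of these data known. The counts carry no molecular identifiers, so counting error is not the whole error.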

Additional observations from a re-analysis of the deposited data

How the results depend on the processing

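Of 144 values of the 9 Hippo pathway genes under alternatives, 134 kept their sign and side of the threshold, 2 passed it (Yap1 and Vgll4 without CharmeKO pool 2) and 8 changed sign. Of 400 values of the other named genes, 337 kept both, 24 passed the threshold, 21 no longer did and 18 changed sign. The causes were not tested.

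All genes called, 305 as reported, were 933 with the likelihood ratio test, 1122 with DESeq2, 43 with the replicate block and the length and GC correction together, 111 at an adjusted p under 0.05, and 0 to 4607 with a pool left out. The count of 0, without CharmeWT pool 3, was by edgeR's quasi-likelihood test and left 1315 genes at an unadjusted p under 0.05. Over all genes the length and GC correction alone gave 371 calls and the robust form 221. The 9 genes gave 0 calls in every alternative except 2 without CharmeKO pool 2, so 0 to 2 with a pool left out. The rest of the pathway, 0 as reported, gave 2 calls with the likelihood ratio test, 3 with DESeq2, 1 with the length and GC correction and 0 to 11 with a pool left out. The targets, 3 as reported, gave 5 with the likelihood ratio test, 5 with DESeq2, 1 with the robust form, 0 with the block and the length and GC correction, 1 at an adjusted p under 0.05, and 0 to 9 with a pool left out.

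With the length and GC correction the log2 fold change changed sign for Amotl1 (0.19), Amotl2 (0.27), Tead2 (0.12), Tead3 (0.035), Tead4 (0.12), Vgll3 (-0.014), Mob1a (-0.030) and Mob1b (-0.034). With the replicate block and that correction it did so for Amotl1 (0.33), Amotl2 (0.25), Vgll4 (0.057), Tead2 (0.15), Tead3 (0.056), Tead4 (0.24), Vgll3 (-0.015) and Mob1b (-0.047). With a pool left out, Wwtr1 ran from -0.21 to 0.057, Amotl1 from -0.14 to 0.13, Tead4 from -0.32 to 0.066, Amot from -0.017 to 0.18, Vgll3 from -0.46 to 0.50, Stk3 from -0.036 to 0.74 and Stk4 from -0.25 to 0.29.

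CharmeWT and CharmeKO pools share the replicate numbers 1 and 2, which the labels do not tie to a litter or day. Deviations from the group means of same-numbered pools correlated over genes at 0.137 (number 1) and 0.0778 (number 2). Those of CharmeWT pool 3 correlated at -0.0587 and 0.0587 with CharmeKO pools 1 and 2. The deviations of the 2 CharmeKO pools mirror each other, so these values cannot show whether pools were paired. As the labels give no pairs, the reported fit used none, and the block was an alternative. With the replicate block alone Amotl1 was at 0.13, 210 genes were called, and among the 9 genes 0, in the rest of the pathway 0 and among the targets 2, with Igfbp3 lost (adjusted p = 0.128). With the block and the length and GC correction together Ankrd1 (1.77, adjusted p = 0.215), Ccn2 (1.34, adjusted p = 0.215) and Igfbp3 (1.04, adjusted p = 0.174) were no longer called. The 5 pools gave standard errors of 0.163 to 0.257 for the 9 genes, which limit what could be detected.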
